A study of Aspergillus terreus with 6 samples.

Results

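Clusters of neighbouring genes that were abundant in controls 1 and 3 of a metal-ion experiment and scarce in the other 4 libraries were described in the filamentous fungus Aspergillus terreus. The members were selected by their measured values. A gene was a member when the lower of its values in controls 1 and 3 exceeded the highest of control 2 and metal libraries 1, 2 and 3 by at least 1.5 on the log2(CPM + 1) scale, where CPM is the count scaled to a common library total by the column sum. At least 1 other such gene also had to lie within 3 identifier numbers. The 10784 annotated genes carry identifiers numbered without a gap from 1 to 10784, and 162 of them met the difference. Of these, 57 had such a neighbour and formed 20 runs, while 105 stood alone. The files hold 11680 features in all, of which 896 are marked as new genes and carry no number in this series of identifiers.

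The mycelia came from the wild-type strain AT2022, grown in fermentation medium at 32 °C and 180 rpm and harvested on day 2. The 3 control libraries are called untreated in labels that also name zinc sulphate at 0.15 g/L and iron sulphate at 0.16 g/L, and whether the control medium held these amounts is not settled. The 3 metal libraries are labelled with zinc sulphate at 0.25 g/L and iron sulphate at 0.40 g/L. The treatment protocol of all 6 libraries speaks of taurine instead, so what the groups share in medium is not settled by the labels. Separate cultures are not stated for the 3 samples of either group. The p-values therefore measure only how these samples vary, and that variation may be technical. Total counts ran from 25097838 to 35124387 per library.

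In filamentous fungi, genes that act in the same pathway often lie side by side on a chromosome and are switched on together. Such clusters commonly encode the enzymes of secondary metabolism, with a transporter and a transcription factor among them. A. terreus is known for the clusters behind lovastatin and itaconic acid. The identifiers in the files are paired with no gene name, product, strand or position, and 0 of 11680 matched the RefSeq table of strain NIH2624. No member is therefore assigned to a known cluster or given a role, and no sequence is shown. The files also do not state that the numbers follow the genome. Without positions or a stated strand setting, reads from overlapping neighbours cannot be told apart from a gene's own reads.

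Control 2 stood with the metal libraries rather than with controls 1 and 3 in these genes, which the rule itself demanded. Because the rule used controls 1 and 3 against the other 4 libraries, the size of that difference is a description and carries no test. Together the 57 members took 3.04% of all counts in control 1 and 3.30% in control 3. In control 2 they took 0.180%, and in metal libraries 1, 2 and 3 they took 0.161%, 0.133% and 0.210%. The median over members was 101 CPM in control 1 and 75.4 CPM in control 3. It was 5.05 CPM in control 2 and, in the order metal 1, 2 and 3, it was 6.08, 6.90 and 9.51 CPM. In bulk mycelium, fewer cells that express a gene and less RNA per cell cannot be told apart.

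**Figure D1:**
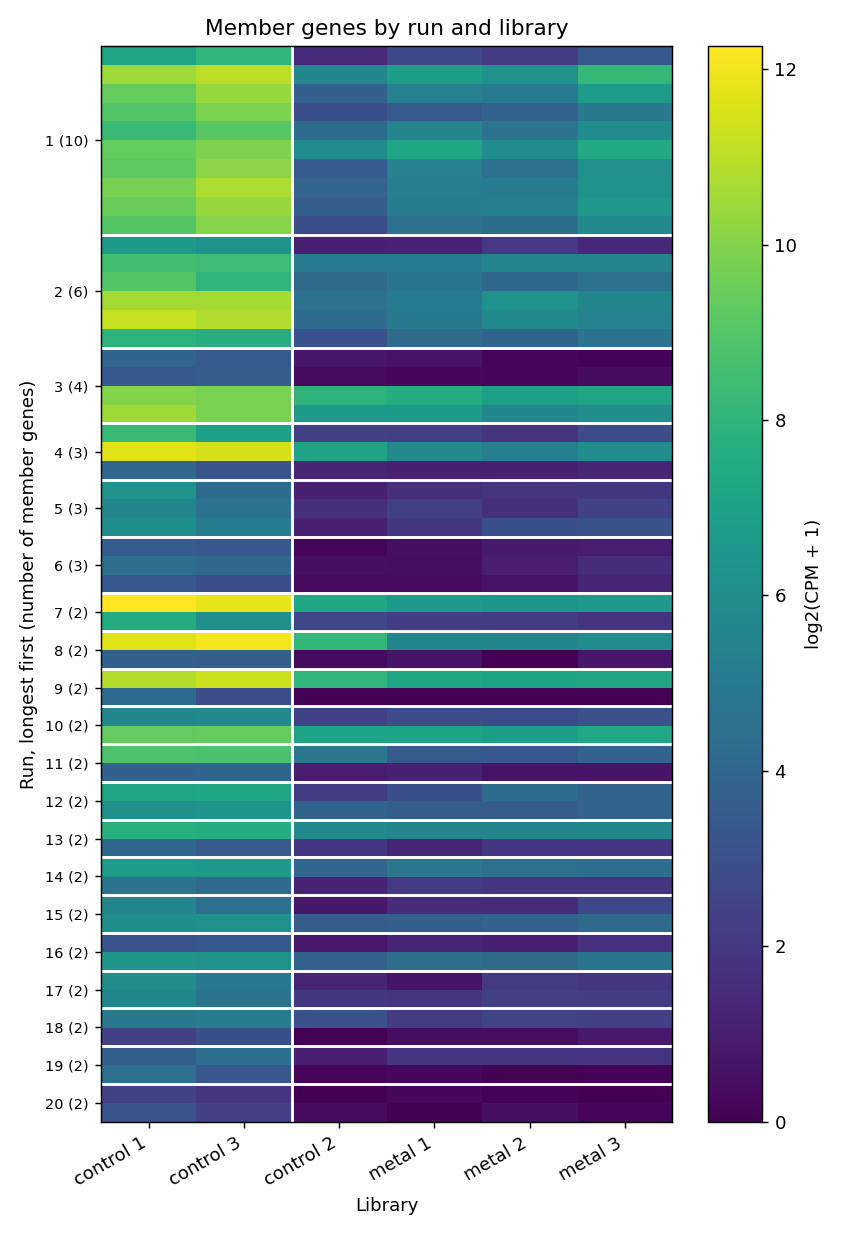
Level of each of the 57 member genes as log2(CPM + 1) (colour), with libraries in columns and genes in rows ordered by run and identifier number. White lines separate the 20 runs, and the vertical line separates controls 1 and 3, where every member is high by the rule, from the 4 libraries where it is low.

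The difference ran from 1.51 to 4.95 among members, with a median of 2.65. The median among the 105 genes that stood alone was 1.96, and their highest was 5.02. The 3 members nearest to the threshold were Aterreus0G061930 at 1.51, Aterreus0G072000 at 1.51 and Aterreus0G071980 at 1.52. On the other side, 3 genes that lie near a gene meeting the difference narrowly missed it. These were Aterreus0G062170 at 1.49, Aterreus0G106120 at 1.46 and Aterreus0G089120 at 1.45. The 3 genes just inside the threshold of all those that met it were Aterreus0G061930, Aterreus0G061540 and Aterreus0G064370, each at 1.51. Just outside lay Aterreus0G062170, Aterreus0G090050 and Aterreus0G012070, each at 1.49. The threshold thus cuts through a continuous range of values, and no gap separates members from other genes.

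The runs were mostly short. There was 1 run of 10 members, 1 of 6, 1 of 4, 3 of 3 and 14 of 2. In 15 of the 20 runs no gene that failed to follow lay between the first and the last member. For 11 of these 15 that holds by construction, since they are pairs of consecutive numbers with no number between. The remaining 5 of the 20 runs enclosed 7 genes that did not follow. Of the 14 runs of 2, 11 were consecutive numbers, 2 were 2 numbers apart and 1 was 3 apart. The closest separate runs were Aterreus0G056450 to Aterreus0G056470 and Aterreus0G056530 to Aterreus0G056540, the second beginning 6 numbers after the end of the first. Flanking genes, those within 3 numbers of a run, could not meet the threshold, since the rule makes any that do members. Of 119 flanking genes, 4 (3.36%) had a difference of 1 or more, against 3.11% of all numbered genes. The latter share includes genes that met the threshold, so these shares are not like for like. A difference of 0 or below was found in 62.2% of flanking genes, against 73.0% of all numbered genes. Whether flanking genes lean towards the pattern was not tested.

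The longest run reached from Aterreus0G052070 to Aterreus0G052180 and held 10 members in 12 consecutive numbers. Every member was highest in control 3, next in control 1, and far lower in the other 4 libraries. Over its members the median was 629 CPM in control 1 and 1088 CPM in control 3. It was 12.6 CPM in control 2 and, in the order metal 1, 2 and 3, it was 39.1, 27.8 and 74.6 CPM. It alone took 0.643% and 1.14% of all counts in controls 1 and 3, against 0.0199% in control 2 and 0.0323% to 0.0965% in the metal libraries. The lowest count of any member in any library was 55, so counting error is small beside these differences.

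The first 4 numbers of that run were all members. Aterreus0G052070 stood at 143 and 265 CPM in controls 1 and 3, at 1.84 CPM in control 2, and at 5.36, 3.22 and 9.51 CPM in metal 1 to 3. Aterreus0G052080, the most abundant member of the run, stood at 1439 and 2115 CPM in controls 1 and 3, at 50.7 CPM in control 2, and at 116, 75.2 and 284 CPM in metal 1 to 3. In both genes control 2 was the lowest library and metal 3 the highest of the 4 low ones. Aterreus0G052090 stood at 653 and 1327 CPM in controls 1 and 3, at 13.0 CPM in control 2, and at 40.2, 31.6 and 107 CPM in metal 1 to 3. Aterreus0G052100 stood at 505 and 922 CPM in controls 1 and 3, at 7.02 CPM in control 2, and at 10.1, 13.7 and 30.3 CPM in metal 1 to 3. The last of these had the widest difference of the run, 4.02 on the log2(CPM + 1) scale.

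The next 2 numbers did not follow. Aterreus0G052110 was nearly level, at 284 and 410 CPM in controls 1 and 3, at 253 CPM in control 2, and at 277, 287 and 363 CPM in metal 1 to 3. Aterreus0G052120 stood at 258 and 219 CPM in controls 1 and 3, at 81.7 CPM in control 2, and at 174, 110 and 191 CPM in metal 1 to 3. Its difference was 0.20, so controls 1 and 3 were only just above the highest metal library. Both genes kept 1 feature of the members around them, since control 2 was the lowest and metal 3 the highest of the 4 libraries in which the run is low.

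From Aterreus0G052130 on, 6 consecutive members followed. Aterreus0G052130 stood at 308 and 533 CPM in controls 1 and 3, at 19.0 CPM in control 2, and at 46.3, 24.1 and 62.2 CPM in metal 1 to 3. Aterreus0G052140 stood at 664 and 957 CPM in controls 1 and 3, at 62.1 CPM in control 2, and at 152, 61.1 and 177 CPM in metal 1 to 3. The latter had the narrowest difference of the run, 1.90, and was its only member in which control 2 was not the lowest library. Aterreus0G052150 stood at 604 and 1124 CPM in controls 1 and 3, at 10.9 CPM in control 2, and at 39.6, 23.4 and 72.1 CPM in metal 1 to 3. Aterreus0G052160 stood at 851 and 1735 CPM in controls 1 and 3, at 15.1 CPM in control 2, and at 38.6, 34.7 and 77.0 CPM in metal 1 to 3. The differences of these genes were 3.05 and 3.45. Aterreus0G052170 stood at 739 and 1342 CPM in controls 1 and 3, at 12.2 CPM in control 2, and at 36.0, 37.0 and 91.9 CPM in metal 1 to 3. Aterreus0G052180 closed the run at 527 and 1051 CPM in controls 1 and 3, at 6.62 CPM in control 2, and at 21.4, 19.5 and 54.0 CPM in metal 1 to 3.

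The level in controls 1 and 3 fell sharply at both ends of the run, but at the near end a weaker form of the pattern went on at that low level. Aterreus0G052190, the next number after the run, stood at 1.56 and 1.43 CPM in controls 1 and 3, at 1.94 CPM in control 2, and at 2.87, 1.47 and 1.79 CPM in metal 1 to 3. Aterreus0G052060, just before the run, stood at 7.72 and 5.30 CPM in controls 1 and 3, at 0.167 CPM in control 2, and at 0.393, 0.399 and 1.54 CPM in metal 1 to 3. It missed the threshold with a difference of 1.31 and became an 11th member with a pseudocount of 0.1 or 0.5. Its control 1 was above its control 3, unlike in any member of the run. Both edge genes were named after their values were seen.

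Members of the longest run differed widely in level once gene length was taken into account. In the deposited FPKM values, which are scaled by gene length and library depth, the mean of controls 1 and 3 was highest for Aterreus0G052080 at 2672 FPKM and Aterreus0G052100 at 1867 FPKM. It was lowest for Aterreus0G052180 at 107 FPKM and Aterreus0G052070 at 115 FPKM. The gene lengths implied by count and FPKM, if FPKM was scaled by the total count, ran from 382 bases for Aterreus0G052100 to 7371 bases for Aterreus0G052180. The shortest and longest genes of this run, and its highest and lowest levels, thus shared the pattern that the rule selected.

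**Figure D2:**
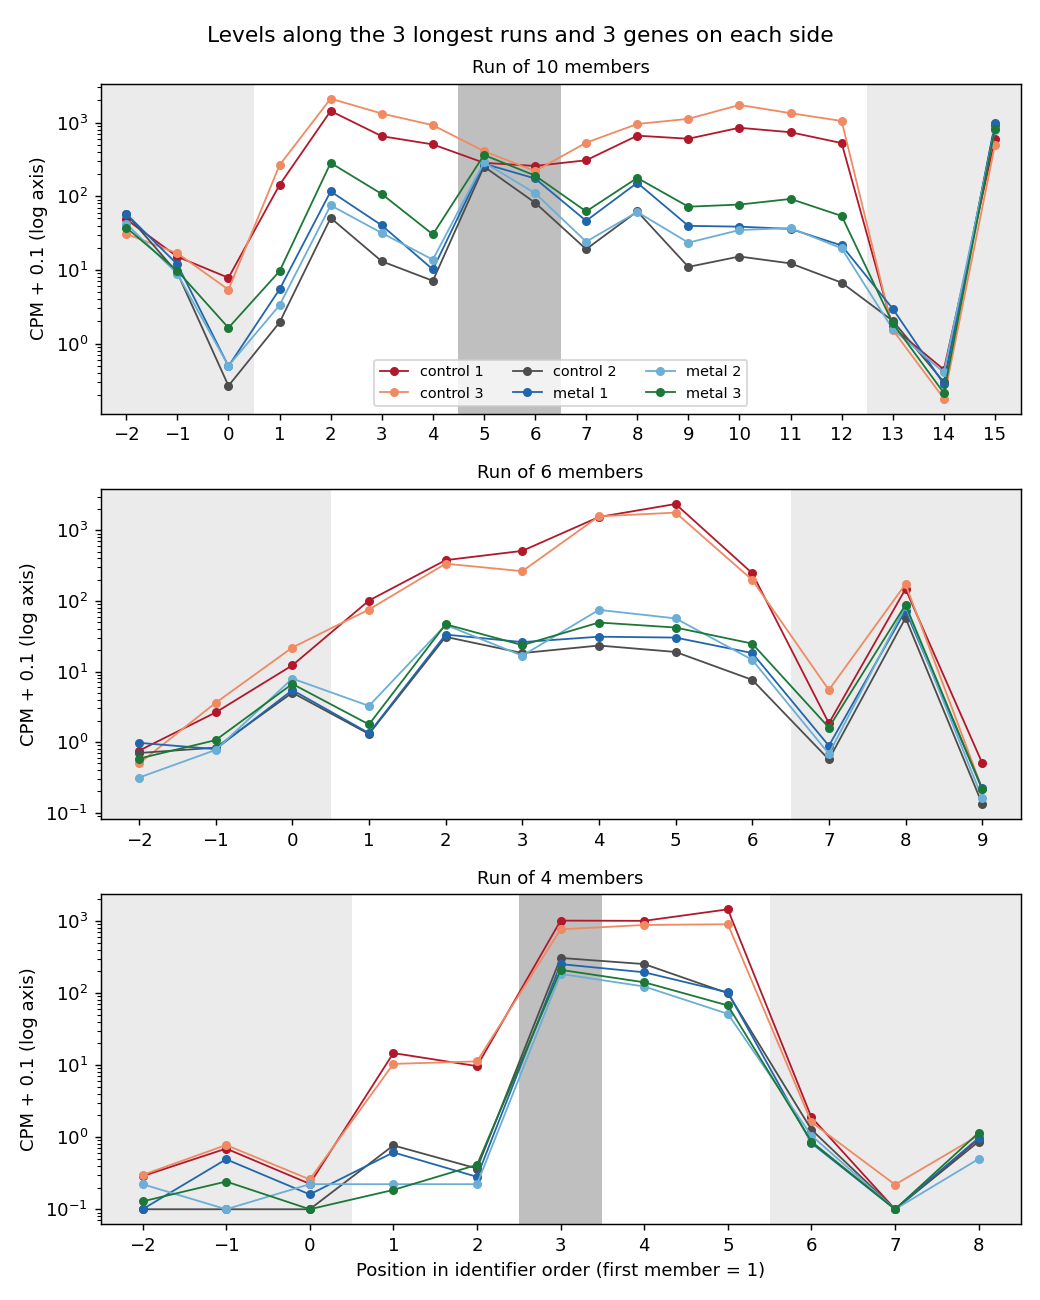
CPM plus 0.1 on a log axis (lines, 1 per library) along the 3 longest runs, with genes in identifier order and 3 genes on each side. White areas are members, dark grey marks genes inside a run that did not follow, and light grey marks flanking genes. In the run of 10, the other libraries rise towards the level of controls 1 and 3 at positions 5 and 6. Just after position 12, controls 1 and 3 drop to the level of the other libraries.

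The second run reached from Aterreus0G105070 to Aterreus0G105120 and held 6 members in 6 consecutive numbers. Over its members the median was 444 CPM in control 1 and 300.0 CPM in control 3. It was 18.5 CPM in control 2 and, in the order metal 1, 2 and 3, it was 28.1, 31.1 and 33.3 CPM. Aterreus0G105110, its most abundant member, stood at 2358 and 1779 CPM in controls 1 and 3, at 18.8 CPM in control 2, and at 30.1, 56.4 and 41.9 CPM in metal 1 to 3. This gene had the widest difference of all members, 4.95. Aterreus0G105100 beside it stood at 1543 and 1576 CPM in controls 1 and 3, at 23.2 CPM in control 2, and at 31.0, 74.6 and 49.3 CPM in metal 1 to 3. In both genes metal 2 was the highest of the low libraries, unlike in the longest run.

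The ends of the second run were lower. Aterreus0G105070 opened it at 101 and 75.4 CPM in controls 1 and 3, at 1.20 CPM in control 2, and at 1.24, 3.16 and 1.68 CPM in metal 1 to 3. Aterreus0G105120 closed it at 247 and 198 CPM in controls 1 and 3, at 7.52 CPM in control 2, and at 18.2, 14.5 and 24.7 CPM in metal 1 to 3. In control 1 each member from the first to the fifth was higher than the one before it, and in control 3 the third member broke that order, at 263 CPM in Aterreus0G105090 after 337 CPM in Aterreus0G105080. Per length, the mean of controls 1 and 3 ran from 54.4 FPKM in Aterreus0G105070 to 1340 FPKM in Aterreus0G105080, whose implied length of 267 bases was the shortest of the run. None of its 3 neighbours on either side had a difference of 1 or more.

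The run of 4 members reached from Aterreus0G032200 to Aterreus0G032240 and joined genes of very different levels. Aterreus0G032240 stood at 1446 and 898 CPM in controls 1 and 3, at 99.3 CPM in control 2, and at 102, 51.2 and 67.0 CPM in metal 1 to 3. Aterreus0G032200 stood at 14.6 and 10.3 CPM in controls 1 and 3, at 0.668 CPM in control 2, and at 0.514, 0.123 and 0.0854 CPM in metal 1 to 3. Both had controls 1 and 3 at the top, at levels far apart. The number between them that did not qualify, Aterreus0G032220, stood at 1009 and 764 CPM in controls 1 and 3, at 306 CPM in control 2, and at 251, 184 and 209 CPM in metal 1 to 3. It shared the direction of the run with a difference of 1.32, just under the threshold. The low libraries were ordered differently here: control 2 was above the mean of the metal libraries in all 4 members.

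Among the 3 runs of 3 members, the run from Aterreus0G056450 to Aterreus0G056470 held one of the most abundant members. Aterreus0G056460 stood at 3385 and 2893 CPM in controls 1 and 3, at 131 CPM in control 2, and at 53.8, 37.5 and 62.7 CPM in metal 1 to 3. Its neighbour Aterreus0G056450 stood at 303 and 119 CPM in controls 1 and 3, at 4.35 CPM in control 2, and at 3.96, 2.70 and 6.32 CPM in metal 1 to 3. These 2 had differences of 4.45 and 4.03, among the 3 largest in runs of 4 or fewer. The runs Aterreus0G075210 to Aterreus0G075230 and Aterreus0G088680 to Aterreus0G088700 were less abundant. Their medians were 67.3 and 24.7 CPM, and 10.9 and 9.04 CPM, in controls 1 and 3. In the other 4 libraries the medians ran from 1.20 to 4.36 CPM and from 0.267 to 1.45 CPM.

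The 14 runs of 2 held 28 members. The most abundant member of all by mean CPM among runs of 4 or fewer was Aterreus0G098920, at 4923 and 3629 CPM in controls 1 and 3, at 153 CPM in control 2, and at 94.6, 84.9 and 96.3 CPM in metal 1 to 3. It also had the largest difference among those runs, 4.56. Aterreus0G068250 stood at 3291 and 4228 CPM in controls 1 and 3, at 275 CPM in control 2, and at 51.1, 50.0 and 62.1 CPM in metal 1 to 3. In this gene control 2 lay well above the metal libraries while still far below controls 1 and 3. Levels within a run of 2 were unequal: per length, the mean of controls 1 and 3 was 2.43 to 255 times higher in the higher gene of the run, and over 10 times higher in 4 of the 14. Those 4 were led by Aterreus0G098920, Aterreus0G068250, Aterreus0G034230 and Aterreus0G069680.

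The weakest runs rest on few counts. Aterreus0G043360 had 135 and 66 counts in controls 1 and 3, 0 in control 2, and 7, 3 and 0 in the metal libraries. Its partner Aterreus0G043370 had 255 and 100 counts in controls 1 and 3, 8 in control 2, and 0, 14 and 4 in the metal libraries. The pair met the rule at single-digit CPM throughout. Over all members, 5 had a count of 0 in at least 1 library, and all 5 were in runs of 2. These low-count genes were named after their values were seen.

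The genes enclosed by other runs of 2 showed 2 kinds of exception. Aterreus0G071990 stood at 225 and 152 CPM in controls 1 and 3, at 43.1 CPM in control 2, and at 64.8, 60.6 and 102 CPM in metal 1 to 3. It leaned the same way as its neighbours, with a difference of 0.58. Aterreus0G098790, at 3.00 and 2.31 CPM in controls 1 and 3 and 0.605 to 1.02 CPM elsewhere, did so at a low level with a difference of 0.71. Aterreus0G025110 had no counts in any library and Aterreus0G098780 stood at 0.279 CPM or less in every library, so neither could show a pattern at this depth. Of the 7 enclosed genes, 1 had a difference of at least 1, 3 lay between 0 and 1, and 3 were at 0 or below.

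The rule fixes that controls 1 and 3 are both high, but not how they compare with each other. That ratio was shared within the longest run and varied between runs. In all 10 members of the longest run control 3 exceeded control 1, by 0.53 to 1.03 on the log2(CPM + 1) scale, with a mean of 0.84 ± 0.18 (SD over 10 genes of the same 2 libraries). The enclosed gene Aterreus0G052110 also had a positive value, 0.52, while Aterreus0G052120 had -0.23. In the second run control 1 was the higher in 5 of 6 members, with a mean of -0.37 ± 0.33. In the run of 4 the mean was -0.28 ± 0.38, with control 1 higher in 3 members. The SD within these 3 runs had a median of 0.33. It was 0.71 over all 57 members and 0.55 over the 9698 tested genes. In runs of 2, where it rests on 2 genes, it went from 0.03 to 1.29, so not every run had a shared ratio.

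Among the runs of 3, control 1 was higher in all 9 members. The means were -0.81 ± 0.56 for the run that holds Aterreus0G056460, -1.26 ± 0.61 for Aterreus0G075210 to Aterreus0G075230, and -0.32 ± 0.07 for Aterreus0G088680 to Aterreus0G088700. In 8 of the 14 runs of 2 both genes leaned the same way, 5 towards control 1 and 3 towards control 3. Unrelated genes can also lean the same way, so no shared ratio is read from this count. Over all 20 runs, 8 had control 1 higher in every member, 4 had control 3 higher in every member and 8 were mixed. Control 1 was the higher in 33 of 57 members, against 47.1% of the 9698 tested genes. The typical counting error of the ratio was small, with a median standard error of 0.042 over members. These are single libraries, so the ratio has no replicate check and no test.

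Pairs of members in the same run had more similar ratios than pairs from different runs. The absolute difference in the ratio had a median of 0.25 over 89 pairs in the same run and 0.75 over 1507 pairs from different runs. The longest run supplies many of these pairs. Without it, the medians were 0.38 over 44 pairs and 0.56 over 1037 pairs, so most of the contrast came from the longest run. Members next to each other in a run differed by a median of 0.37 over 37 pairs. The nearest match is consecutive numbers over all tested genes, with a median of 0.44 over 8029 pairs, which include many genes of low count. For the place of control 2 against the metal mean, the medians were 0.47 within runs and 0.85 between runs, and 0.46 and 0.68 without the longest run. Consecutive tested genes had a median of 0.23 on that measure. Members next to each other in a run had a similar median, 0.26 over 37 pairs. The other pairs within runs lie further apart. Pairs share genes and libraries and are not independent, so no test is given.

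**Figure D3:**
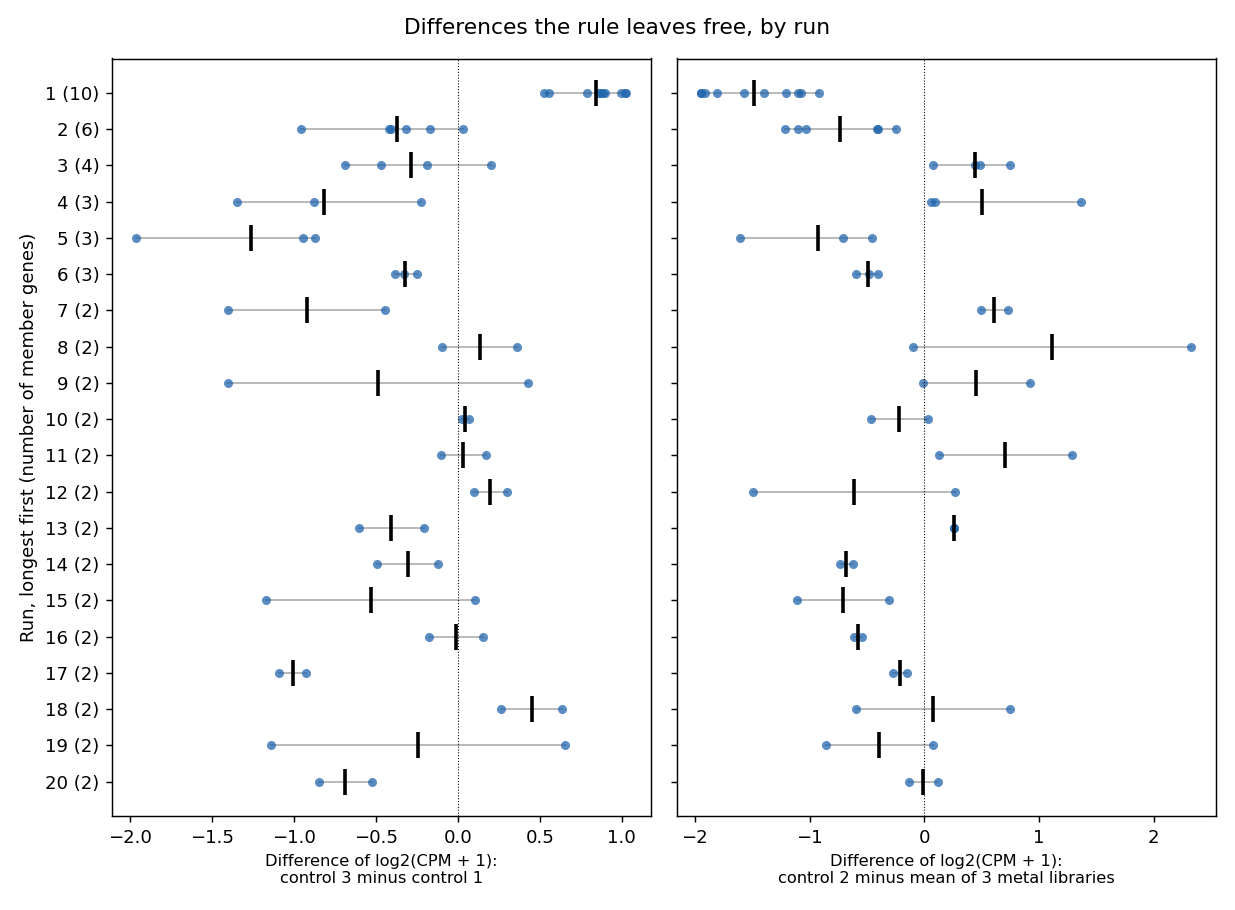
Differences in log2(CPM + 1) between control 3 and control 1 (left) and between control 2 and the mean of the 3 metal libraries (right) for each member (points), by run; black bars are run means and grey lines the range. The run of 10 sits wholly above 0 on the left, from 0.53 to 1.03, and wholly below 0 on the right.

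The order of the 4 low libraries was also left free by the rule, apart from the height of the highest one. In the longest run metal 3 was the highest of the 4 in all 10 members and control 2 the lowest in 9. The full order metal 3, metal 1, metal 2, control 2 held in 7 of 10 members, in 7 of the other 47 members and in 5.61% of tested genes. Control 2 lay below the mean of the metal libraries by 1.49 ± 0.40 (SD over the 10 genes) on the log2(CPM + 1) scale, from -1.94 to -0.92. Apart from Aterreus0G052140, every member of the longest run had 3 tiers: controls 1 and 3, then the metal libraries with metal 3 on top, then control 2.

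The place of control 2 varied among the other runs. In the second run control 2 was the lowest of the 4 in 5 of 6 members, with a mean of -0.73 ± 0.42 against the metal libraries. In the run of 4 it was instead above them on average, at 0.44 ± 0.28, and was the highest in 2 members. It was also above them in both members of the run that holds Aterreus0G098920, at 0.61 ± 0.17. The largest single value was 2.32 in Aterreus0G068250, whose neighbour Aterreus0G068260 stood at -0.10. In 8 runs every member had control 2 below the metal mean, in 5 runs every member had it above, and 7 runs were mixed. Some of these sides rest on few counts, since 7 members had 3 or fewer counts in at least 1 of the 4 low libraries. Aterreus0G034240 made its run mixed at -0.01, with 0 counts in control 2 and 0, 1 and 0 in metal 1 to 3.

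Over all 57 members control 2 was the lowest of the 4 in 29 (50.9%), against 32.1% of tested genes, and the highest in 12 (21.1%), against 20.6%. Metal 3 was the highest of the 4 in 29, against 22.4%. In the runs of 4 or fewer control 2 was lowest in 15 of 41 members (36.6%) and highest in 12, so the excess over the background sat mostly in the 2 longest runs. The 105 genes that stood alone had control 2 lowest in 34 (32.4%) and highest in 31 (29.5%). Metal 3 was the highest of the 4 in 41 of those 105, so its excess over the background was not particular to runs. It was highest in 8 of 9 members in runs of 3 and in 8 of 28 in runs of 2. One library against 3 cannot give an exact two-sided permutation p below 0.5, so the place of control 2 was not tested.

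Each library was also left out of the rule and read in the genes found without it. The grouping of control 2 with the metal libraries was taken from these data. Leaving a library out only relaxes the rule, so every member is found again. Each member also meets 1.5 for the library left out, because the full rule required it. Only the genes added by leaving it out could miss 1.5. These values are a description and support nothing. Without control 2, the rule found 63 genes in 22 runs, made up of all 57 members and 6 added genes. Control 2 lay below the lower of controls 1 and 3 by at least 1.5 in 59 of these 63 genes (93.7%) and below it by at least 1.19 in all of them. It was below all 3 metal libraries in 31, within their range in 16 and above all of them in 16. The same reading without metal 1 gave 58 of 59 genes (98.3%), without metal 2 60 of 64 (93.8%), and without metal 3 64 of 72 (88.9%). All of these counts include the 57 members, so the shares are mostly fixed by the rule. No held-out low library reached the lower of controls 1 and 3 in any gene. The median distance was 3.15 for control 2 and 2.99, 2.93 and 2.49 for metal libraries 1, 2 and 3.

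**Figure D4:**
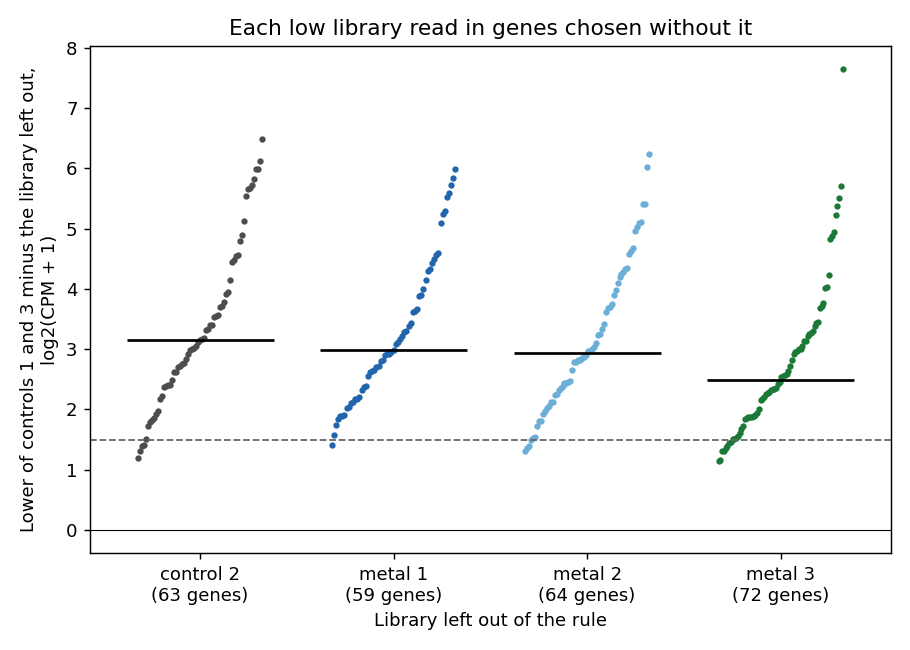
For each low library, the lower of controls 1 and 3 minus that library on the log2(CPM + 1) scale, in the genes the rule finds without that library (points, sorted within a library); bars are medians and the dashed line is the threshold of 1.5. No point lies at or below 0 for any of the 4 libraries, and the medians run from 2.49 to 3.15. Members meet the threshold by the full rule, so only added genes can fall short of it.

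The same reading was made for the high libraries. Without control 1 the rule found 90 genes, and control 1 exceeded the highest low library by at least 1.5 in 67 of them (74.4%) and was at or below it in 1. Without control 3 it found 116 genes, and control 3 did so in 77 (66.4%) and was at or below in 3. Both counts include the 57 members, which meet 1.5 by the full rule, so much of each share was fixed in advance. Only the added genes could miss it. These genes were chosen with 1 high library, those of the low libraries with 2, so the shares are not set against each other.

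With the groups as labelled, the call of members in metal against control depended on the tool. Of the 57 members, 54 passed the low-count filter and were tested with edgeR's quasi-likelihood test, and 0 were called at an adjusted p under 0.05, where 0% of the 9698 tested genes were called lower. At an unadjusted p under 0.05 it had 52 of the 54 lower in the metal group, against 6.75% of all tested genes. With limma-voom 0 of the 54 were called, and 13 were lower at an unadjusted p under 0.05, against 3.80% of tested genes. With the replicate number as a block in edgeR, 0 were called and 23 were lower at an unadjusted p under 0.05, against 5.07%. DESeq2 called 26 of the 57 lower and 0 higher, against 1.30% of its genes called lower. The rule used 5 of these 6 libraries in the same direction, so nothing is read from the members' shares by any of the 3 tools. Its calls covered 0 of 10 members in the longest run, 3 of 6 in the second, all 4 in the run of 4 and all 3 in the run that holds Aterreus0G056460.

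The fitted changes in the longest run were large and imprecise. Aterreus0G052100 had a log2 fold change of -4.65 ± 1.40 (SE) and Aterreus0G052140 one of -2.03 ± 0.86, each with an edgeR adjusted p of 0.568. The enclosed Aterreus0G052110 had 0.01 ± 0.23 and Aterreus0G052120 had -0.17 ± 0.41, with edgeR adjusted p-values of 0.984 and 0.880. The lowest edgeR adjusted p of any member was 0.494, for Aterreus0G068250, at -5.50 ± 0.93. The median log2 fold change was -3.25 over the 54 tested members and -0.0056 over all tested genes. The members' median was largely fixed in advance, since the rule sets controls 1 and 3 at least 1.5 above every metal library. All 3 controls lay above all 3 metal libraries in 12 of the 57 members (21.1%), in 9 runs, against 6.77% of tested genes. The rule already sets controls 1 and 3 above every metal library, so this count turns on control 2 alone, and control 2 was above all metal libraries in 20.6% of tested genes, close to the members' share. None of the 12 was in the 2 longest runs.

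Without control 2, edgeR called all 57 members lower in the metal libraries, where 10.2% of 9935 tested genes were called lower. Adjusted p-values in the longest run then ran from 0.000797 to 0.00783, and in the second from 0.000101 to 0.000425. That fit rests on 2 controls, and these are the libraries the rule chose on, so the calls restate the rule. Whether these runs followed the salts cannot be told apart from what set controls 1 and 3 apart from control 2, since control 2 carries the control label and lacks the pattern.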

How the data were processed

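The authors deposited raw counts per gene, 25097838 to 35124387 in total per library, and FPKM values for each library. TopHat2 and DESeq are named, without a role, in the submitters' processing notes. For the counting program, build, annotation, strand setting and FPKM program, the information was not given in these sources. There were 0 columns of other samples and 0 rows that name no gene. The members and lists were chosen with earlier results of these data known. Members were found on log2(CPM + 1) with CPM from the column sum, and runs join members at most 3 numbers apart. Named genes are all genes of the longest run, the ends and highest member of other runs of 5 or more, and in shorter runs the 3 highest and the 3 with the largest difference; others are run ends or were picked after their values were seen. Counts were tested with edgeR 4.0.16 in R 4.3.3 (filterByExpr, TMM, robust quasi-likelihood F test, Benjamini-Hochberg over all tested genes, threshold 0.05), with DESeq2 1.42.0 and limma-voom (limma 3.58.1) as alternatives. Each standard error is the fold change over the root of its F value. Alternatives were other pseudocounts, differences, neighbour distances, scalings and filters, a replicate block, and each library left out. The rule and the edgeR procedure were tested on simulated data. Lengths were implied from genes with 20 or more counts. Pathway lists could not be applied, since no identifier matched a name.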

Additional observations from a re-analysis of the deposited data

How the results depend on the processing

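The longest run kept 9 to 11 members under most settings of the rule, and fell to 6 with neighbours within 1 or 2 numbers, which splits it at its 2 enclosed genes, and to 4 at a difference of 3. The number of members was 88 in 32 runs with a pseudocount of 0.1 and 35 in 11 runs with 5. It was 138 in 54 runs at a difference of 1 and 15 in 6 runs at 3, and a difference of 2 left 13 runs. With single libraries left out it ran from 59 to 116 members, 21 to 44 runs and 10 to 11 genes in the longest run. Both numbers passed 1.5 times the reported ones without control 1 (90 members, 33 runs) and without control 3 (116 members, 44 runs), where 1 high library decides alone. TMM scaling and DESeq2 size factors gave 51 genes each, and FPKM gave 58, of which 52 were among the 57. For ratios among the low libraries, the SD within a run had a median of 0.27 over the 3 longest runs, and 0.35 with a pseudocount of 0.1. The cause of that change was not tested. The share of members with control 2 lowest ran from 47.4% to 56.5%. For metal against control, DESeq2 called 10 genes higher, 136 lower and 26 members lower; the cause was not tested. With single libraries left out, edgeR called 0 to 652 genes higher, 0 to 1009 lower, 0 to 57 members lower and 0 to 0 members higher, above 0 only without control 2; DESeq2 without control 2, chosen after seeing the data, gave 1135, 1253 and 57. Samples with the same replicate number correlated at 0.067, 0.16 and 0.17 in their deviations from the group means, so the numbers were not taken as pairs; the replicate block called 0 genes and 0 members. Among 22 named genes only the 2 enclosed genes changed sign, and the cause was not tested. Aterreus0G052110, at 0.01, was at -0.030 under column-sum scaling and at -0.060 with DESeq2 without control 2, and ran from -0.12 (without metal 3) to 0.20 (without control 3) with single libraries left out, negative also without control 1 (-0.05) and control 2 (-0.08). Aterreus0G052120, at -0.17, ran from -0.51 (without control 2) to 0.15 (without control 1), positive also without metal 2 (0.04).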

Other observations

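Features marked as new genes carry no number in the identifier series and could not enter a run. Of these 896 features, 2 (0.223%) met the same difference of 1.5, against 162 of 10784 numbered genes, and the larger of their differences was 1.91.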
